A study of Mus musculus with 12 samples.

Results

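*Epcam*, *Krt7*, *Krt19*, *Cftr*, *Krt8*, *Krt18*, *Krt23*, *Sox9* and *Spp1* are genes whose transcripts are read as signs of bile ducts or of a ductular reaction in the liver. These 9 genes were taken by name from the 41743 genes of the deposited tables. They were divided into 4 genes that in the adult liver are largely restricted to duct cells, *Epcam*, *Krt7*, *Krt19* and *Cftr*, and 5 genes that hepatocytes also make or turn on under stress, *Krt8*, *Krt18*, *Krt23*, *Sox9* and *Spp1*.

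Bile leaves hepatocytes through canaliculi and drains into ducts lined by cholangiocytes, the epithelial cells of the biliary tree. Keratins are intermediate filament proteins that assemble as pairs of a type I and a type II chain. Hepatocytes make the pair K8 and K18, whereas cholangiocytes make K7 and K19 as well. When bile flow is blocked, hepatocytes are known to raise *Krt8* and *Krt18* and can take up *Sox9*, *Spp1* and other genes of the ductal programme, so a raised marker in whole liver does not by itself locate the transcript in a duct.

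Whole-liver RNA was sequenced from 12 females, 3 to 4 months old, in 4 groups of 3. YAP KO mice carried *Foxa3*-Cre, homozygous floxed *Yap1* and the ROSA-stop fl/fl-EYFP reporter on a C57BL/6 background, and were compared with their WT littermates, WT (C57BL/6). YAP KO TAZ HET mice were made with the same Cre but from another floxed line, *Wwtr1* fl/fl *Yap1* fl/fl, for which no reporter is stated. They were to lose *Yap1* and also 1 copy of *Wwtr1*, which encodes TAZ. Their comparison group was their own WT littermates on a mixed C57BL/6 and FVB background, WT (mixed). *Foxa3*-Cre acts in the early foregut endoderm, so hepatocytes and cholangiocytes come from cells exposed to the recombinase, and so do parts of the gut and pancreas. Stellate, endothelial and immune cells do not come from this endoderm. The paper mentions data, not shown, that point to an effect of this Cre line in developing kidney, which arises from mesoderm. Recombination by cell type was not tested here. Whether the WT mice carried floxed alleles or the reporter is not given in the sources used here. Values are TPM, a unit that corrects for transcript length and library total, so levels of different genes can be set side by side. Values of single mice are given in the order LM75, LM192, LM193 for WT (C57BL/6), LM74, LM189, LM191 for YAP KO, LM226, LM227, LM230 for WT (mixed) and LM225, LM250, LM251 for YAP KO TAZ HET. In bulk tissue, fewer cells of a type and less RNA per cell cannot be told apart.

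*Yap1* was at 28.2 to 30.5 TPM in WT (C57BL/6) livers against 1.67 to 3.72 in YAP KO livers, and at 31.0 to 33.2 in WT (mixed) against 8.63 to 11.5 in YAP KO TAZ HET livers. The mean *Yap1* ratio to WT littermates was thus 0.0821 in the first model and 0.304 in the second, and the log2 fold changes differed by -1.59 (adjusted p = 0.0371, limma; past 0.05 under 5 of 19 alternatives, which gave 0.00184 to 0.47). *Wwtr1* was at 6.26 to 6.83 TPM in WT (C57BL/6), 13.3 to 16.7 in YAP KO, 7.73 to 8.38 in WT (mixed) and 11.5 to 14.1 in the mutants of the mixed set, so it was not below the WT level where 1 copy was to be lost (log2 fold changes 0.73, adjusted p = 0.00186, and 0.26, adjusted p = 0.0743, limma). Hepatocyte markers, 8 genes, summed to 72200 to 109000 TPM over all livers, with *Alb* between 51600 and 83100 TPM. The pancreatic enzymes *Cpa1*, *Pnlip* and *Prss2* were all above 1 TPM (2.61 to 11.7) in 3 libraries, WT (C57BL/6) LM192 and YAP KO LM189 and LM191, and at most 0.313 TPM in the other 9. Pancreatic ducts and acini also express several of the markers, so results that changed without these libraries are given both ways. Without the scaling between libraries, the median log2 fold change of all tested genes moved from -0.04 to 0.28 in the C57BL/6 set and to 0.24 in the mixed set, and the share of changed genes that were higher moved from 51.3% to 84.0% and from 50.2% to 82.2%. All changes below are relative to the bulk of the genes.

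Of the 9 genes, 7 passed the filter of at least 1 TPM in at least 3 libraries and entered the limma fit of log2(scaled TPM + 1). In YAP KO mice 5 of the 7 were higher at an adjusted p under 0.05 and 0 were lower, and all 5 were genes that hepatocytes also make. Over all 11704 genes tested in that comparison 36.7% changed and 18.8% were higher. Among YAP KO TAZ HET mice 4 of the 7 were higher, *Krt8*, *Krt18*, *Sox9* and *Spp1*, where 38.2% of 11741 tested genes changed, 19.2% higher and 19.0% lower. *Epcam* was lower there, but only the WT mice of that set reached 1 TPM, so it could enter the test only through the group in which it was high. The median log2 fold change of the 5 genes also made by hepatocytes was 2.50 for YAP KO mice and 1.69 for YAP KO TAZ HET mice, beside -0.04 over all tested genes in both models. With the changes of both models averaged over 12 libraries, 4 genes were higher and 1, *Epcam*, was lower, where 55.3% of all tested genes changed. There too *Epcam* could pass the filter through the WT livers alone. In each model the TPM of mutant and WT livers stood clear of each other for 5 of the 7, as they did for 56.7% of all tested genes in the C57BL/6 set and 54.5% in the mixed set.

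**Figure D1:**
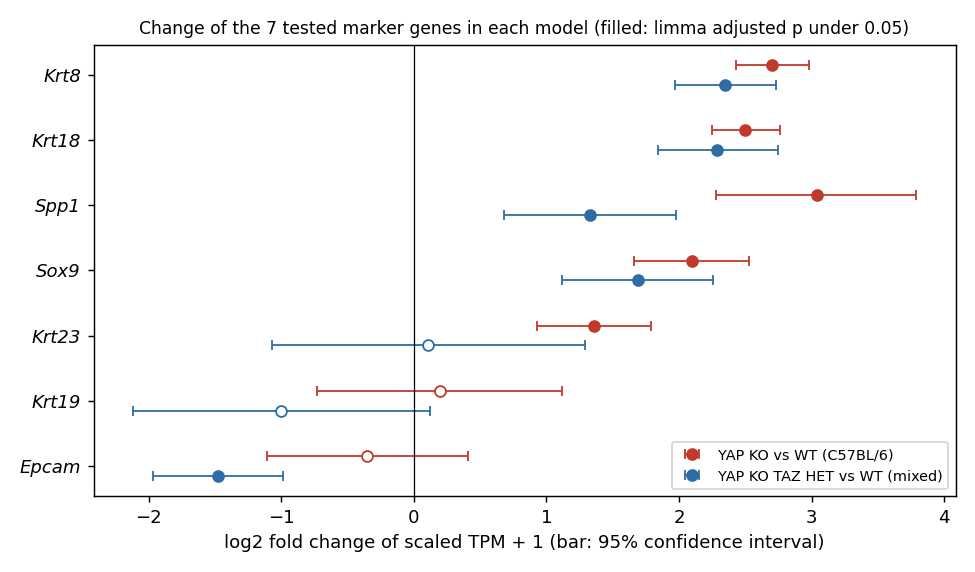
Log2 fold change (x axis, on scaled TPM + 1, with the 95% confidence interval as a bar) of the 7 tested marker genes in YAP KO mice (red) and YAP KO TAZ HET mice (blue), each against WT littermates; filled points passed an adjusted p of 0.05. Krt8 and Krt18 lie between 2.29 and 2.70 in both models, while the intervals of Krt19 include 0 in both and Epcam lies at -0.35 and -1.48.

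*Krt8* and *Krt18* encode the type II and type I chains of the simple epithelial keratin filament, the filament that hepatocytes and cholangiocytes share. They were the most abundant of the 9 transcripts in every group and rose in both models. The genes lie 23697 bases apart in the keratin cluster on chromosome 15 of GRCm38, *Krt8* (ENSMUSG00000049382) from 101996698 to 102004482 on the minus strand and *Krt18* (ENSMUSG00000023043) from 102028180 to 102032027 on the plus strand, so that they are read away from each other. Because these neighbours moved together, the stretches before their starts are shown, with that of *Epcam* (ENSMUSG00000045394, chromosome 17, 87635979 to 87651129, plus strand), a duct-restricted gene that did not move with them. They come from RefSeq windows on GRCm38.p6, written 5′ to 3′ on the strand of the gene and ended at the first annotated exon base, with capitals for the letters CCGCCC on either strand (a GC box).
Krt8, chr15:102004483-102004592, minus strand: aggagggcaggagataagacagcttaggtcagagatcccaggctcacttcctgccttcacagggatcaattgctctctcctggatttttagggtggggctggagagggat
Krt18, chr15:102027966-102028179, plus strand: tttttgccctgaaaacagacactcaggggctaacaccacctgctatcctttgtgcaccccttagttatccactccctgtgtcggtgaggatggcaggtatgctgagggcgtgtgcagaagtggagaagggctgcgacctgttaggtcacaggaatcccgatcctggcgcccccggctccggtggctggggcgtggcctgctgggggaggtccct
Epcam, chr17:87635729-87635978, plus strand: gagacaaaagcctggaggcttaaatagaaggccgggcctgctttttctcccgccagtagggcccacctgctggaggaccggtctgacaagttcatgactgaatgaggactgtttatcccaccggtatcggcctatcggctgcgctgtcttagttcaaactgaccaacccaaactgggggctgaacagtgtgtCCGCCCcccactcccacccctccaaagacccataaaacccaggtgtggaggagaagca
RefSeq windows were found for 7 of the 9 genes, all but *Sox9* and *Krt19*. In the full 250 bases before the RefSeq start, which for *Krt7*, *Krt8*, *Krt18* and *Krt23* reach into annotated exons, CCGCCC occurred 6 times for *Cftr*, 4 times for *Krt7* and 1 time for *Epcam*, and 0 times for *Krt8*, *Krt18*, *Krt23* and *Spp1*, where 32.7% of 32851 promoter windows held it. The letters GGAATG, the core bound by the TEAD factors that YAP and TAZ work through, were in none of the 7 genes' windows (12.6% of all windows), nor were the AP-1 letters TGANTCA (6.75%). TATAAA was in 1 of the 2 *Spp1* windows only (12.4%). All motifs were searched on both strands and each pattern was counted on its own, and no match says only that these letters are not in this window.

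*Krt8* was at 174, 200.3 and 157 TPM in WT (C57BL/6) livers, and YAP KO livers held 1550, 1563 and 1335 TPM, a log2 fold change of 2.70 (SE 0.12, adjusted p = 4.5e-06, limma). The WT (mixed) livers held 226, 163 and 203 TPM and the YAP KO TAZ HET livers 1071, 1370 and 1341 TPM, which gave a log2 fold change of 2.35 (SE 0.17, adjusted p = 3.61e-05, limma). Every mutant liver was above every WT liver, and the mean TPM ratio was 8.38 for YAP KO mice and 6.39 for YAP KO TAZ HET mice.

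*Krt18* gave 188, 193 and 161 TPM in WT (C57BL/6) and 1417, 1339 and 1202 TPM in YAP KO livers, with a log2 fold change of 2.50 (SE 0.11, adjusted p = 4.5e-06, limma). WT (mixed) livers held 181, 134 and 201.5 TPM of it and their mutant littermates 876, 1074 and 1211 TPM, with a log2 fold change of 2.29 (SE 0.20, adjusted p = 9.69e-05, limma). The groups again stood clear of each other, and the 95% intervals of the difference between the models ran from -0.12 to 0.81 for *Krt8* and from -0.33 to 0.73 for *Krt18*. A near-identical copy of each gene is annotated, *Krt8-ps* and *Gm5200*, and reads shared with a copy could be assigned to either, so both levels carry that uncertainty. *Gm36026*, which overlaps *Krt8* exons on the opposite strand, was listed at 0 in all 12 libraries.

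**Figure D2:**
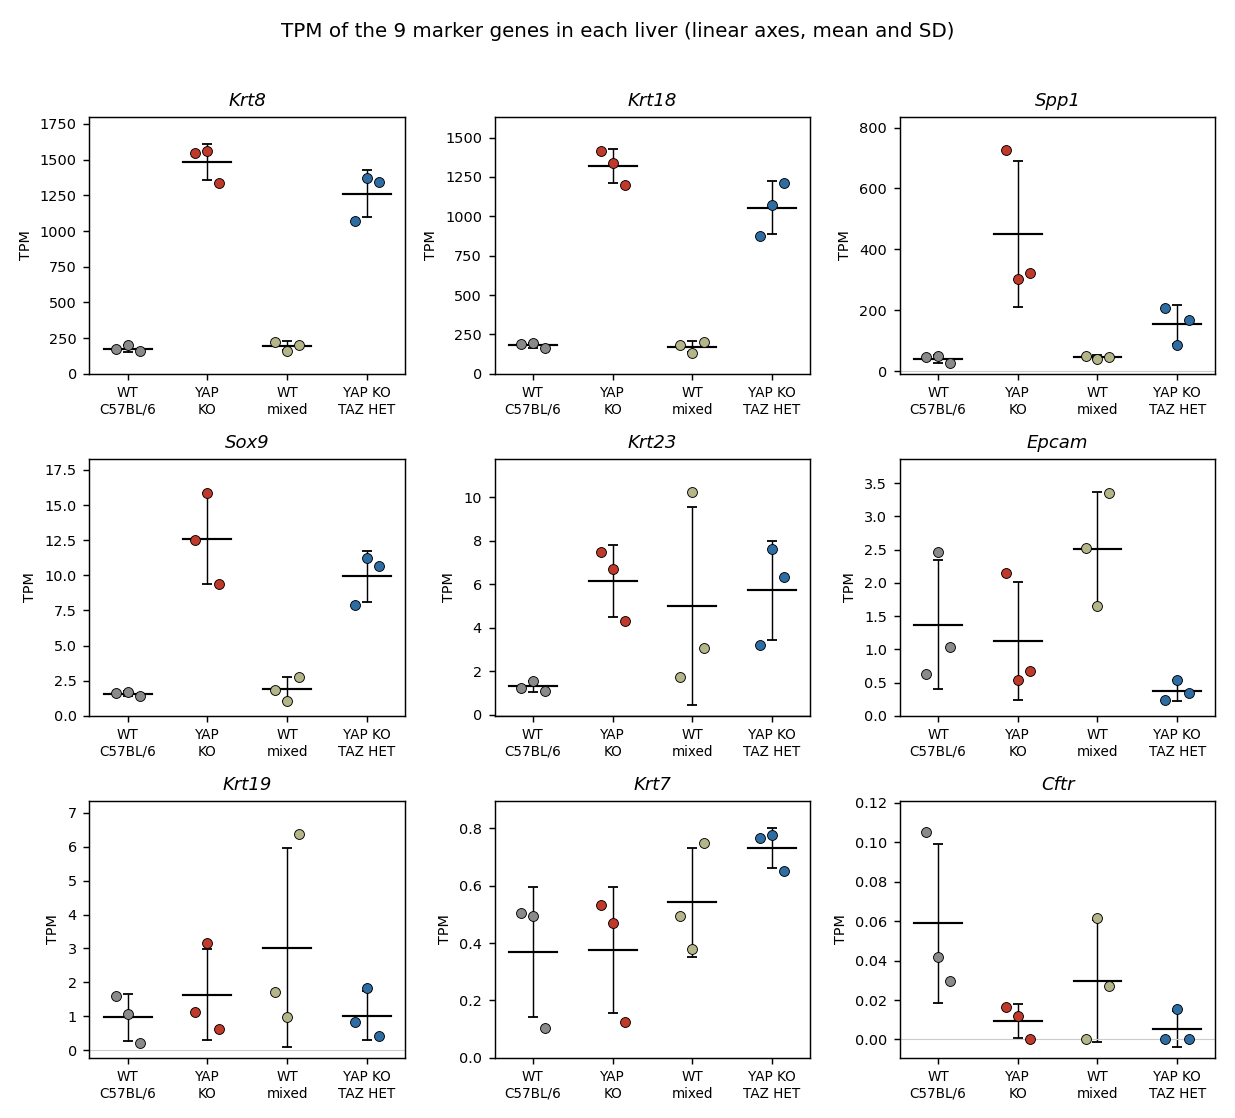
TPM (y axis, linear, a separate range in each panel) of the 9 marker genes in each of the 12 livers, 3 mice a group, with the group mean as a line and the SD as a bar. Krt8, Krt18, Spp1 and Sox9 are higher in every mutant liver than in every WT liver of its set, whereas the groups overlap for Krt19 and Krt7 and the values of Cftr stay at or below 0.105 TPM.

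*Sox9* (ENSMUSG00000000567, chromosome 11, 112782224 to 112787760) encodes a transcription factor of duct progenitors and cholangiocytes that hepatocytes near the portal vein also switch on in injury. It was at 1.60, 1.72 and 1.40 TPM in WT (C57BL/6) and 12.5, 15.9 and 9.37 TPM in YAP KO livers, a log2 fold change of 2.10 (SE 0.19, adjusted p = 0.000128, limma). The mixed set gave 1.86, 1.07 and 2.76 TPM for WT and 7.87, 11.2 and 10.7 TPM for mutant livers, a log2 fold change of 1.69 (SE 0.25, adjusted p = 0.0013, limma). The lowest mutant liver thus held more *Sox9* than the highest WT liver in both sets, at levels that were small beside those of *Krt8*.

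*Spp1* (ENSMUSG00000029304, chromosome 5, 104435118 to 104441050) encodes osteopontin, a secreted phosphoprotein of cholangiocytes, activated macrophages and stellate cells. It was at 44.9, 49.0 and 26.0 TPM in WT (C57BL/6) and at 725, 303 and 323 TPM in YAP KO livers, a log2 fold change of 3.04 (SE 0.33, adjusted p = 0.000325, limma). In the mixed set WT livers held 50.7, 38.9 and 46.7 TPM and mutant livers 208, 84.4 and 168 TPM, a log2 fold change of 1.33 (SE 0.28, adjusted p = 0.0071, limma). *Spp1* rose in both models, and the YAP KO livers, LM74 most of all, lay above every YAP KO TAZ HET liver. The difference between the models was 1.70 (SE 0.49, unadjusted p = 0.0045), which did not pass over all genes (adjusted p = 0.766, limma). Without the 3 libraries with pancreatic enzymes, which leaves LM74 as the only YAP KO mouse, the change in YAP KO mice was 3.86 (adjusted p = 0.000638, limma), that over both models went from 2.18 to 2.59, and the difference between the models was 2.54 (adjusted p = 0.62, limma). Macrophage markers were also higher in both models. This held for all 7 of the macrophage list that reached 1 TPM in WT and mutant groups alike. It also held for 3 that reached it in the mutants alone and so entered the fit through them. Their summed level was 154 to 174 TPM in WT (C57BL/6) and 606 to 745 TPM in YAP KO livers. In the mixed set it was 119 to 233 TPM in WT and 692 to 831 TPM in mutant livers. Between the models, the median difference of the 10 macrophage genes was -0.06, with 4 of 10 above 0, beside 1.70 for *Spp1*. For the 8 stellate cell and myofibroblast genes it was 0.32, with 7 of 8 above 0. None of these differences passed. In stellate cell and myofibroblast markers 5 of 8 were higher in each model, 1 of them a gene that only the mutants had at 1 TPM, and 1 was lower in YAP KO mice, and they summed to 230 to 297 TPM in YAP KO livers and 131 to 188 TPM in the mutants of the mixed set, against at most 46.8 TPM in any WT liver. The part of these cells in the *Spp1* level was not tested. *Gm42793*, which overlaps *Spp1* exons on the same strand, was listed at 0 in all libraries.

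*Krt23* (ENSMUSG00000006777, chromosome 11, 99477974 to 99493137), a type I keratin that is scarce in healthy liver and is induced in injured hepatocytes, passed the test in 1 of the sets. WT (C57BL/6) livers held 1.24, 1.56 and 1.09 TPM and YAP KO livers 7.47, 6.70 and 4.29 TPM, a log2 fold change of 1.36 (SE 0.18, adjusted p = 0.000988, limma). In the mixed set WT livers gave 1.74, 10.2 and 3.05 TPM and mutant livers 3.20, 7.63 and 6.35 TPM, a log2 fold change of 0.11 (SE 0.51, adjusted p = 0.89, limma). The highest value of the 12 was thus in a WT liver, LM227, which makes the groups overlap, and the difference between the models did not pass (1.25, SE 0.62, adjusted p = 0.998, limma). Averaged over both models the log2 fold change was 0.73 (adjusted p = 0.0618, limma), and without LM227 it was 1.04 (adjusted p = 0.00173, limma). Without the 3 libraries with pancreatic enzymes, which leaves 1 YAP KO mouse whose spread is taken from the other groups, the change in YAP KO mice was 1.60 (adjusted p = 0.144, limma).

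The 4 duct-restricted genes were near or below 1 TPM in most livers, WT included, and none of them rose. *Epcam* encodes an adhesion molecule on the surface of duct epithelium. It was at 0.624, 2.46 and 1.03 TPM in WT (C57BL/6) livers, and YAP KO livers held 2.14, 0.544 and 0.679 TPM, a log2 fold change of -0.35 (95% interval -1.11 to 0.41, adjusted p = 0.441, limma). In the mixed set WT livers gave 2.53, 1.65 and 3.36 TPM and mutant livers 0.240, 0.544 and 0.348 TPM, a log2 fold change of -1.48 (SE 0.21, adjusted p = 0.00118, limma). *Epcam* was therefore lower in all 3 YAP KO TAZ HET livers than in any WT littermate, with a mean TPM ratio of 0.150, while 1 YAP KO liver, LM74, held as much as WT livers. Only the WT mice reached 1 TPM in the mixed set, so the gene entered that test through the group in which it was high.

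Over both models *Epcam* fell by 0.92 on the log2 scale (95% interval -1.38 to -0.45, adjusted p = 0.00324, limma; exact stratified permutation p = 0.025). Of the mutant livers only LM74 reached 1 TPM, so here too the gene could pass the filter through the WT livers alone. The highest WT (C57BL/6) value, 2.46 TPM, was in LM192 and the lowest YAP KO values were in LM189 and LM191, the 3 libraries with pancreatic enzymes. Without them, which leaves LM74 as the only YAP KO mouse, the change over both models was -0.49 and that in YAP KO mice was 0.50. With 1 YAP KO mouse these fits cannot show whether the call over both models depends on the libraries with pancreatic enzymes. None of these libraries enters the comparison in the mixed set.

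*Krt19* (ENSMUSG00000020911, chromosome 11, 100140810 to 100148665), the type I keratin used in histology to mark cholangiocytes, was at 1.59, 1.08 and 0.216 TPM in WT (C57BL/6) and at 1.13, 3.15 and 0.608 TPM in YAP KO livers. The WT (mixed) livers held 1.72, 0.963 and 6.39 TPM and their mutant littermates 0.836, 1.82 and 0.404 TPM. Livers of 1 group differed more than the groups did, and 1 WT liver, LM230, held the highest value of the 12. The log2 fold change was 0.20 (95% interval -0.73 to 1.12, adjusted p = 0.736, limma) in the C57BL/6 set and -1.0 (95% interval -2.12 to 0.12, adjusted p = 0.139, limma) in the mixed set, and changes within these intervals were not detectable. LM230 was also the WT liver with the most *Epcam* and *Krt7*, and of the other duct genes *Muc1* (2.59 TPM) and *Tff2* (3.20 TPM) were highest there. Not all duct genes followed. *Prom1* (1.23 TPM) was lowest of the 12 livers in LM230, and *Pkhd1* (1.01 TPM) was lowest there among the WT (mixed) livers.

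*Krt7* (ENSMUSG00000023039, chromosome 15, 101411043 to 101430313), the type II keratin of duct epithelium, and *Cftr* (ENSMUSG00000041301, chromosome 6, 18170687 to 18322768), the chloride channel of the cholangiocyte apical membrane, did not pass the filter. *Krt7* ran from 0.106 to 0.505 TPM in WT (C57BL/6), 0.124 to 0.533 in YAP KO, 0.381 to 0.749 in WT (mixed) and 0.653 to 0.779 in YAP KO TAZ HET livers. The groups overlapped in both sets, and the mean difference over both models was -0.02 on log2(scaled TPM + 1) (exact stratified permutation p = 0.86). *Cftr* was at 0.105, 0.0418 and 0.0298 TPM in WT (C57BL/6) and at 0.0167, 0.0121 and 0 TPM in YAP KO livers. It was at 0, 0.0614 and 0.0273 TPM in WT (mixed) livers, and of the YAP KO TAZ HET livers only LM250 was above 0, at 0.0157 TPM. The *Cftr* values of YAP KO livers lay below those of their WT littermates, and the difference over both models was -0.06 on the log2 scale (exact stratified permutation p = 0.02), at levels where the number of reads behind a value is unknown. *Gm671* and *Gm15592*, which overlap exons of *Krt7* and *Cftr* on the opposite strand, were listed at 0 in every library.

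The contrast between keratins was also taken within each liver, where the scaling between libraries has no part. *Krt8* and *Krt18* kept close to 1 to 1, with a TPM ratio of 0.925 to 1.04 in WT (C57BL/6), 1.09 to 1.17 in YAP KO, 1.01 to 1.25 in WT (mixed) and 1.11 to 1.28 in YAP KO TAZ HET livers. The ratio was 1.10-fold higher over both models, which did not pass the exact stratified permutation test (p = 0.07). *Krt19* per *Krt18* was 0.125-fold the WT ratio over both models (log2 difference -3.00, exact stratified permutation p = 0.01), *Krt7* per *Krt8* was 0.166-fold (-2.59, exact p = 0.005) and *Krt23* per *Krt18* was 0.385-fold (-1.38, exact p = 0.005). The value 0.005 is the smallest that the 400 relabelings allow. The keratin pool of the mutant livers had shifted towards *Krt8* and *Krt18*, which rose while *Krt7* and *Krt19* taken alone passed no test. As *Krt8* and *Krt18* are the denominators, the lower ratios follow from their rise and show no fall of *Krt7*, *Krt19* or *Krt23*. *Krt23* itself was higher in YAP KO mice. The *Krt7* to *Krt8* ratio was lower in every mutant liver than in every WT littermate in both sets, at 9.29e-05 to 0.000344 against 0.000673 to 0.0029 in the C57BL/6 set and at 0.000487 to 0.000717 against 0.00219 to 0.00368 in the mixed set. Within 1 set 0.1 is the smallest exact p that 3 mice against 3 allow.

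**Figure D3:**
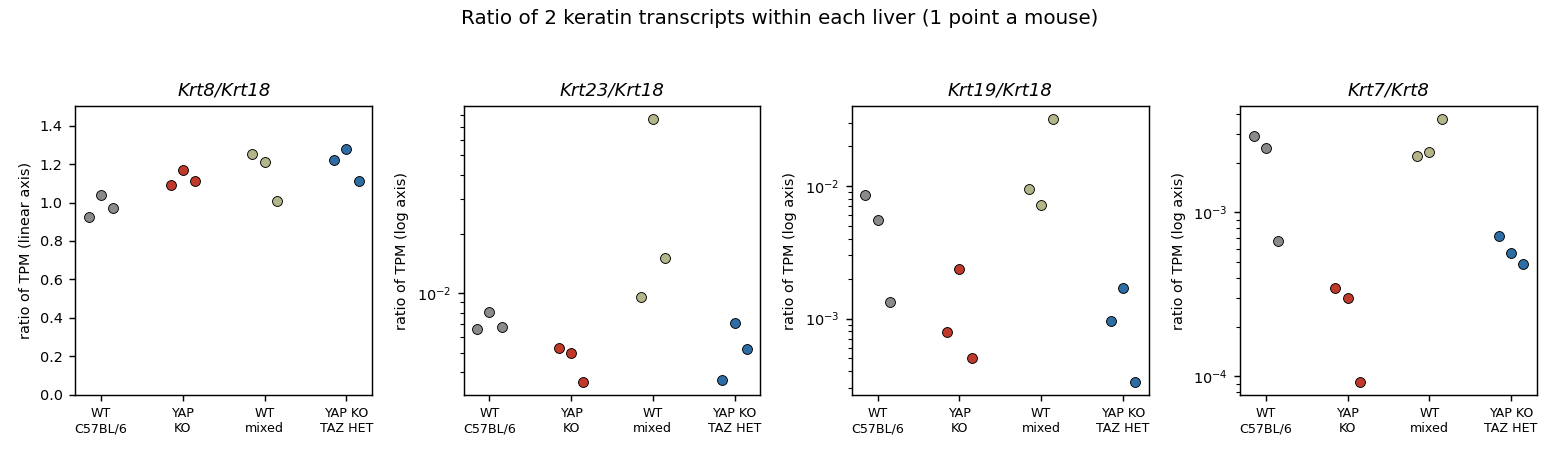
Ratio of the TPM of a pair of keratin transcripts in each liver (y axis; linear for Krt8/Krt18, log scale for the other panels), 1 point a mouse, 3 mice a group. Krt8/Krt18 stays between 0.925 and 1.28 in all livers, while Krt7/Krt8 is lower in all mutant livers than in their WT littermates.

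Of 49 genes named Krt and a number, 26 were listed at 0 in all libraries and 7 reached 1 TPM in any. *Krt8* and *Krt18* together gave 95.69% to 99.73% of the keratin TPM of a liver. Besides the 9 marker genes, *Krt10*, a keratin of differentiated epidermis, was the only one tested in a model: its log2 fold change was -0.08 in YAP KO TAZ HET mice, and over both models it was -0.48 (adjusted p = 0.00381, limma), at no more than 1.33 TPM in any liver. In the C57BL/6 set it failed the filter, but WT livers held 0.75 to 1.25 TPM and YAP KO livers 0.087 to 0.361 TPM, with no overlap and a mean ratio of 0.223. The difference between the models was -0.78 (unadjusted p = 0.00506, adjusted p = 0.773, limma).

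The order of the levels was like in the 4 groups at the top. *Krt8* and *Krt18* were the 2 highest in every group, with overlapping ranges, and *Spp1* was the third, apart from its neighbours. Below it, *Sox9* (median 1.60 TPM), *Krt23* (1.24), *Krt19* (1.08) and *Epcam* (1.03) followed each other in WT (C57BL/6) livers, and each overlapped the next. In the mutant groups *Sox9* (12.5 and 10.7 TPM), then *Krt23* (6.70 and 6.35 TPM), stood apart above *Krt19* (1.13 and 0.836 TPM). *Krt7* was eighth in 3 groups and seventh, above *Epcam*, in YAP KO TAZ HET livers, and *Cftr* was the lowest in all.

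Of the 7 tested genes 0 differed between WT (mixed) and WT (C57BL/6) livers (limma, adjusted p under 0.05), where 0.216% of all tested genes did, and 1 had an unadjusted p under 0.05, *Krt23*, which was 1.09 higher on the log2 scale in WT (mixed) livers (unadjusted p = 0.0418, adjusted p = 0.831). Between the changes in the models 0 of 7 differed, where 0.0576% of all tested genes did, and 2 had an unadjusted p under 0.05, *Spp1* and *Epcam* (1.12, unadjusted p = 0.0232, adjusted p = 0.998, limma). The models differ in background, in cohort, in the line that gave the floxed *Yap1* allele and in the reporter as far as stated. They also differ in the *Wwtr1* genotype and in the *Yap1* transcript that remained, and these differences cannot be told apart. The change of *Wwtr1* itself differed by 0.46 between them (adjusted p = 0.802, limma).

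A list of 15 other genes of duct cells, also chosen with earlier results of these data known, was set beside the markers. In each model 7 were tested and 6 were higher, the remaining 8 being too low. In the C57BL/6 set *Tspan8* and *Cldn7* reached 1 TPM in the mutants alone and entered the fit through them. Of the other 5 genes 4 were higher, among them *Slc5a1*, which reached it in a single WT liver (2.14 TPM). In the mixed set all 7 reached it in both groups, but *Cldn7* (1.28 TPM) and *Slc5a1* (1.12 TPM) in a single WT liver each. Such genes could pass the filter through the mutants alone. The median log2 fold change of the 7 tested genes was 1.71 for YAP KO mice and 1.21 for YAP KO TAZ HET mice. Both medians include the genes that could enter through the mutants alone, so the filter may have raised them. Those that rose most in YAP KO mice were *Tspan8*, a tetraspanin of epithelial cells, *Cldn7*, a tight junction claudin, and *Prom1*, the progenitor surface protein CD133. *Tspan8* was at 0.268 to 0.935 TPM in WT (C57BL/6) and 14.1 to 19.0 TPM in YAP KO livers, and at 0.343 to 2.36 TPM in WT (mixed) and 18.7 to 52.0 TPM in their mutant littermates (log2 fold changes 3.16 and 3.5, adjusted p = 1.49e-05 and 0.0006, limma). *Cldn7* was at 0.291 to 0.996 TPM and 12.1 to 14.7 TPM in the first pair, and at 0.3 to 1.28 TPM and 11.9 to 20.5 TPM in the second (2.82 and 3.17, adjusted p = 4.86e-05 and 0.000104, limma). *Prom1* rose by 2.39 and 1.77 (adjusted p = 9.34e-05 and 0.00802, limma). These genes rose in both models, in which *Krt7* and *Krt19* taken alone passed no test. Over both models 2 of the 8 genes tested were lower, where 55.3% of all tested genes changed in either direction. They were *Pkhd1* (-0.29, adjusted p = 0.0496, limma) and *Tff2* (-0.78, adjusted p = 0.0375, limma), the latter listed at 0 in all 3 YAP KO TAZ HET livers. *Tff2* could pass the filter through the WT livers alone.

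**Figure D4:**
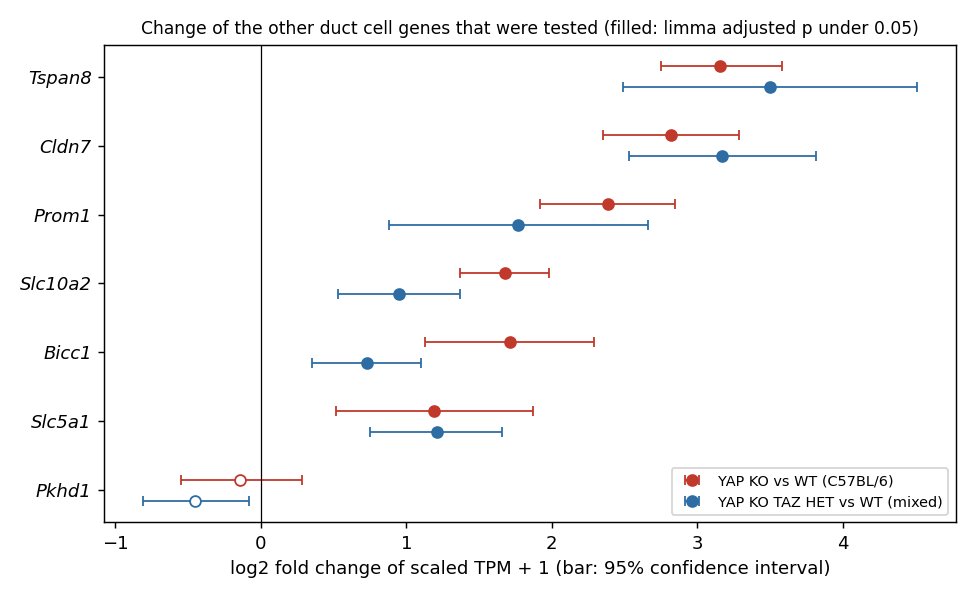
Log2 fold change (x axis, on scaled TPM + 1, with the 95% confidence interval as a bar) of the 7 other duct cell genes tested in both models, in YAP KO mice (red) and YAP KO TAZ HET mice (blue), each against WT littermates; filled points passed an adjusted p of 0.05. Tspan8 and Cldn7 lie furthest to the right at 2.82 to 3.5, and the points of Pkhd1 are open. In the C57BL/6 set Tspan8 and Cldn7 reached 1 TPM in the mutants alone, so the filter fixed their direction.

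A list of 12 genes that stressed hepatocytes are known to express was chosen with earlier results of these data known, so its counts only describe. In YAP KO mice 9 of 10 tested were higher (7 of the 8 that also reached 1 TPM in WT). In YAP KO TAZ HET mice 6 of 9 were higher. Those that rose most in YAP KO mice were *Ly6d*, a surface antigen (7.04 and 7.03 in the 2 models, adjusted p = 2.56e-06 and 3.72e-05, limma), *Lcn2*, the acute phase protein lipocalin 2 (5.46 and 6.18, adjusted p = 3.19e-05 and 2.64e-06) and *Anxa2*, a membrane-binding annexin (3.24 and 3.18, adjusted p = 7.25e-06 and 2.77e-05). The summed level of the list was 117 to 168 TPM over all WT livers, and 2850 to 3290 TPM for YAP KO and 2700 to 3680 TPM for YAP KO TAZ HET livers. Hepatocyte markers fell in 4 of 8 in each model, with *Hnf4a* at 165 to 306 TPM over all livers. In YAP KO mice 18.8% of all 11704 tested genes were higher and 2093 were lower. In YAP KO TAZ HET mice 19.2% of all tested genes were higher and 19.0% were lower.

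Mesothelium, the sheet that covers the liver, expresses *Krt7*, *Krt8*, *Krt18* and *Krt19* as well. Of its 6 markers 2 were tested in YAP KO mice, *Msln* and *Wt1*, and both reached 1 TPM in the mutants alone, so the filter fixed their direction. In YAP KO TAZ HET mice this held for *Wt1*. Of 3 markers that reached 1 TPM in both groups 1 was higher, *Msln*, which did so in a single WT liver (1.39 TPM). The summed level of the 6 markers was 1.14 to 2.68 TPM in WT (C57BL/6), 5.88 to 8.25 in YAP KO, 2.71 to 4.89 in WT (mixed) and 7.21 to 15.4 in YAP KO TAZ HET livers. *Wt1* was at most 0.316 TPM in any WT liver and 1.51 to 2.54 TPM in the mutant livers. Endothelial markers were higher in 1 and lower in 1 of 6 in YAP KO mice, and higher in 2 and lower in 2 of 6 in YAP KO TAZ HET mice, at a summed 41.1 to 79.9 TPM over all livers. Pancreas and gut markers summed to 9.78 to 50.7 TPM, with 0 of 4 tested genes changed in YAP KO and 1 of 1 lower in YAP KO TAZ HET mice. The part of any of these cells in the marker levels was not tested.

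The genes whose profile over the 12 libraries was most like that of a marker were found by Pearson correlation of log2(scaled TPM + 1), as a description only, since all libraries share the split into WT and mutant. For *Krt18* they were *Tmem176b* (r = 0.997), *Krt8* (0.995) and *Tmsb10* (0.993), and for *Krt8* they were *Fam124a* (0.996), *Loxl2* (0.995) and *Nid1* (0.995). *Sox9* was nearest to *Gsr* (0.986), *Elf3* (0.985) and *Serpinh1* (0.984), and *Spp1* to *Foxm1* (0.991), *Shisa5* (0.974) and *Nrg1* (0.973). The closest genes of the other 3 had lower correlations: *Krt19* was nearest to *Lamb3* (0.947), *Hcfc1r1* (0.818) and *Raet1e* (0.797), *Epcam* to *Sox7* (0.893), *Aar2* (0.893) and *Ccne2* (0.891), and *Krt23* to *Heatr5a* (0.826), *Rem1* (0.817) and *Cbarp* (0.815). None of the closest 3 genes of *Krt8*, *Krt18*, *Sox9* or *Spp1* was a duct-restricted marker, but *Krt7* and *Cftr* failed the filter and could not be listed. Genes without a strong split into WT and mutant could hardly rank there, so nothing on the source of the transcripts follows.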

How the data were processed

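RNA was extracted from frozen whole liver of 12 female mice. Reads were mapped to GRCm38.p6 by the authors with CLC Genomics Workbench, and TPM per gene and mouse were deposited. They also deposited fold changes, p-values and false discovery rates of each model against its littermates (edgeR), which were not used. Read counts were not used here, so the depth of each library is unknown beyond the nominal figure in the paper, and no count test was run. The spread between 3 mice is the only error.

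The test ran on log2(TPM / trimmed-mean scaling factor + 1). A gene was kept where 3 or more libraries of a fit reached 1 TPM, and was tested in limma 3.58.1 with R 4.3.3 (eBayes with trend, Benjamini-Hochberg over all tested genes, threshold 0.05, two-sided). The factors ran from 0.852 to 0.947 in WT and from 1.075 to 1.219 in mutant livers. Fold changes on this scale understate those of low genes. The fit of a model used its own 6 libraries. The mean of both changes and their difference were fitted over 12 libraries. Ratios and single genes were compared by exact two-sided permutation tests, stratified by set where both models were joined (400 relabelings). The steps were tested on simulated data. Alternatives were other pseudocounts, filters, scalings and thresholds, robust shrinkage, a shared fit and each mouse left out. Leaving out the libraries with pancreatic enzymes was chosen after seeing the data.

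The 9 genes and all gene lists were chosen with earlier results of these data known. Of the duct and stress lists, the 3 largest rises and falls past the threshold in YAP KO mice were named, with other keratins tested in either model and the 3 genes most like each tested marker; *Hnf4a*, *Wt1*, *Msln*, *Pkhd1*, *Muc1*, *Tff2* and *Alb* were named after their values were seen. Of the duct list, 1 gene is not reported here. Promoter windows came from RefSeq (GRCm38.p6) and gene spans from the files' GRCm38 annotation.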

Additional observations from a re-analysis of the deposited data

How the results depend on the processing

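No paired analysis was possible because the litter of each mouse is not given in the sources used here, so litters were not modelled. The calls of *Krt8*, *Krt18*, *Sox9* and *Spp1* in each model and over both held under every alternative run in which they were tested. The marker genes changed numbered 4 or 5 in each model, 4 to 6 over both, and 0 between the models and between the WT groups. On unscaled TPM the difference over both models was 0.09 for *Krt7* (exact p = 0.415, in place of -0.02) and 0.99 for *Krt23* (exact p = 0.045). Leaving out a mouse, the log2 *Krt8* to *Krt18* ratio over both models ran from 0.08 to 0.16, and it passed without LM226 (exact p = 0.035) or LM251 (exact p = 0.03). The limma change of *Krt23* over both models, 0.73, passed with a pseudocount of 0.1 (0.98), without scaling (0.99) and without LM225 (0.89) or LM227 (1.04).

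Uncalled values changed sign as follows. *Krt23* in YAP KO TAZ HET mice was -0.03 with quantile normalization and -0.37 to 0.71 with a mouse left out, and *Krt19* in YAP KO mice -0.20 to 0.47. Between the WT groups, leaving out a mouse gave -0.13 to 0.30 for *Sox9*, -0.30 to 0.01 for *Krt18* and -0.11 to 0.31 for *Spp1*. Without the libraries with pancreatic enzymes *Epcam* in YAP KO mice was 0.50 and over both models -0.49. The cause was not tested.

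Over all genes, an adjusted p under 0.01 called 2501 in place of 4295 genes in YAP KO mice and 2642 in place of 4486 in the mixed set, where leaving out LM251 called 2833. Of 7 genes that differed between the models, 2 to 20 were called under alternatives, and of 24 between the WT groups 9 to 15 where the count moved by over 1.5 times. The number of reads behind each value is unknown, so the precision of values below 1 TPM, as for *Krt7* and *Cftr*, could not be given.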
